A study of Mus musculus with 18 samples.

Results

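The voltage-gated sodium channels, voltage-gated calcium channels and Hcn channels were followed in motor neurons and in ventral spinal cord tissue of wildtype and SOD1 mutant mice. Members were taken by gene symbol: the sodium channel alpha and beta subunits (Scn), the calcium channel alpha1, alpha2delta, beta and gamma subunits (Cacna, Cacnb, Cacng) and the Hcn channels. This found 37 of the 18193 genes on the arrays, read by 87 of 45101 probe sets. They comprised 8 sodium channel alpha and 3 beta subunits, 9 calcium channel alpha1 subunits, 4 alpha2delta, 3 beta and 8 gamma subunits, and 2 Hcn channels. Where a gene had several probe sets, the brightest on average stood for it. Some members of these families were not analysed here.

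Gene expression was measured on 18 Affymetrix arrays, 1 per sample, in 6 groups of 3. The groups were ventral spinal cord tissue, spinal motor neurons and facial motor neurons (of a motor nucleus in the brainstem), of wildtype and of SOD1 mutant animals. SOD1 encodes a cytosolic superoxide dismutase, and mutations in it cause a familial form of amyotrophic lateral sclerosis, in which motor neurons die. The labels give neither the SOD1 allele nor its promoter, strain, sex, age, batch or how the cells were picked, all titles carry an unexplained D60, and all RNA went through T7-based linear amplification. The labels do not tie samples to animals, so p-values measure only how far these samples scatter, which may be technical.

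Voltage-gated sodium channels open on depolarisation and carry the rising phase of the action potential. Their alpha subunit forms the pore, and beta subunits adjust gating and anchor the channel in the membrane. Voltage-gated calcium channels couple depolarisation to transmitter release, to firing pattern and to gene expression: the alpha1 subunit forms the pore and sets the current type (L, P/Q, N, R or T), while alpha2delta and beta subunits bring it to the membrane. Most gamma subunits of the brain act chiefly as auxiliary subunits of AMPA-type glutamate receptors. Hcn channels open on hyperpolarisation and carry the cation current that helps to set the resting potential and rhythmic firing.

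Levels are given as log2(intensity + 16) after quantile normalization, in the order of replicates 1, 2 and 3. A level under 8.79, the 40th percentile of all genes, is close to background, and no fold is given from it. Where a group mean was near background, the log2 difference gives a direction, and its size is limited by background. Levels of different genes are not compared, because probe sets differ in brightness. Differences were tested with limma over 10916 genes with Benjamini-Hochberg adjustment, and called at an adjusted p under 0.05.

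Several properties of the arrays bear on these genes. The summed intensity of 10 motor neuron markers on the arrays was 27700 to 34700 in tissue, 109000 to 154000 in spinal motor neurons and 152000 to 186000 in facial motor neurons, where the spinal markers Mnx1 and Lhx3 were near background. The signal at the 3' end of actin over that at its 5' end, a control ratio that rises as the 5' end of the RNA is lost, was 1.63 ± 0.06 (SD, n = 3) in wildtype tissue, 46.5 ± 9.06 in wildtype spinal and 67.6 ± 7.44 in wildtype facial motor neurons. In mutant motor neurons it was lower, at 30.7 ± 7.36 in spinal and 39.8 ± 17.0 in facial cells. Sod1 itself had a mean level of 16.10 in wildtype and 16.49 in mutant tissue, 16.40 and 16.85 in spinal, and 16.51 and 16.75 in facial motor neurons. Replicate 3 of wildtype tissue stood apart with a summed skeletal muscle marker intensity of 57800, against 1830 and 2090 in the other wildtype tissue samples and 803 to 5400 in all remaining groups. Replicate 2 of mutant spinal motor neurons had a summed inhibitory interneuron marker intensity of 99700, against 46500 and 7470 in replicates 1 and 3. The median SD of a channel gene within a group was 0.18 in wildtype and in mutant tissue and 0.38 to 0.49 in the motor neuron groups.

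Of the 37 channel genes, 20 had a mean above 8.79 in all 6 groups, 11 in some and 6 in none. The 6 were Cacna1f (a calcium channel of retinal synapses), Cacna1s and Cacng1 (pore and gamma subunit of the skeletal muscle channel), Cacng6, Cacna2d4 and Scn10a (Nav1.8, a channel of sensory neurons). On the wildtype tissue array with raised muscle markers, Cacna1s read 7.63 and Cacng1 5.70, both under 8.79. Bright in every group were, among others, Scn1a and Scn8a (Nav1.1 and Nav1.6, the latter concentrated at the axon initial segment and nodes of Ranvier), Scn4b (the beta subunit linked to resurgent sodium current), Cacna2d3, Cacna2d2, Cacnb4 and Cacng2 (stargazin, which carries AMPA receptors to the synapse).

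**Figure D1:**
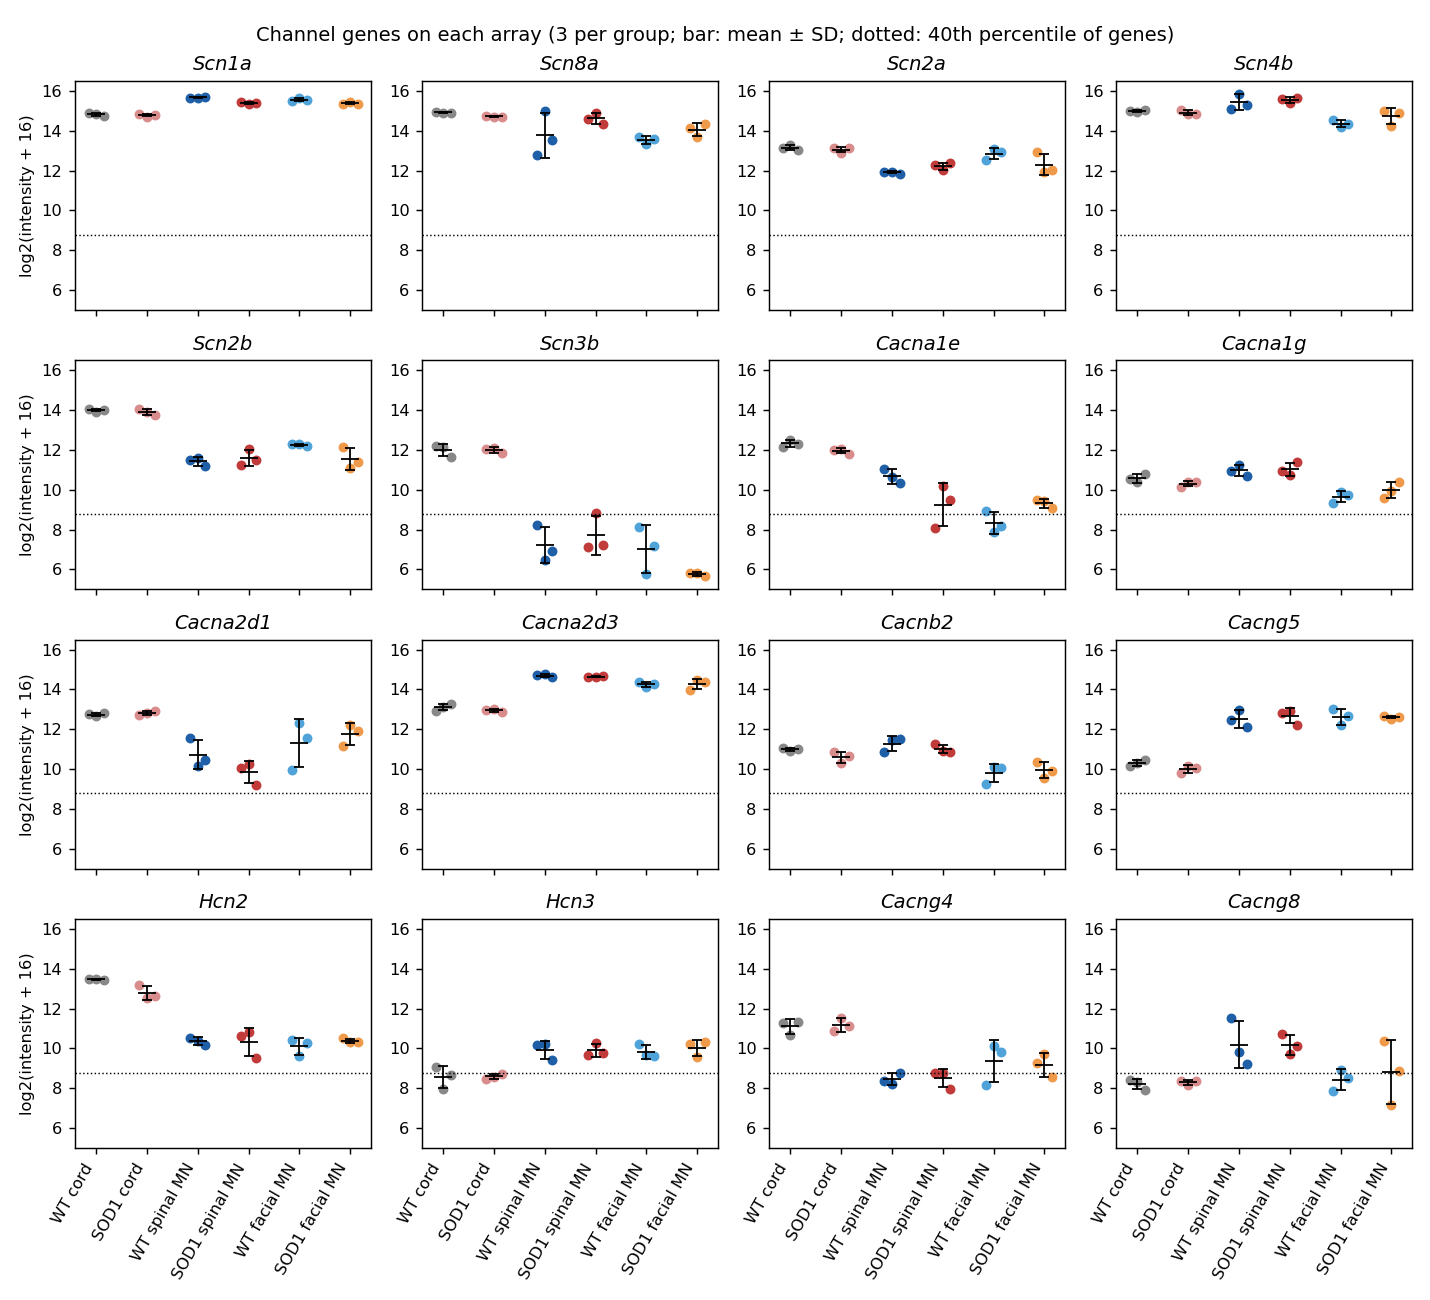
Levels of 16 channel genes on each of the 18 arrays as log2(intensity + 16), by group (WT, wildtype; SOD1, SOD1 mutant; MN, motor neurons; cord, ventral cord tissue); points are arrays, bars the mean ± SD of 3, and the dotted line the 40th percentile of genes at 8.79. Hcn2, Scn2b and Scn3b were lower on all motor neuron arrays than on any tissue array, and Cacna2d3, Cacng5 and Scn1a were higher. Between spinal motor neurons and tissue, groups did not overlap in 67% (wildtype) and 72.9% (mutant) of all genes tested.

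Several members lie next to each other in the genome, and some neighbours differed in direction between motor neurons and tissue while others shared it. Scn2b (chr9:45117876-45130070, RefSeq on GRCm38.p6) and Scn4b (chr9:45138624-45154155) are adjacent beta subunit genes, and of them Scn2b was called lower in motor neurons. On chromosome 2, Scn3a (chr2:65457118-65567591), Scn2a (chr2:65620764-65767447), Scn1a (chr2:66270781-66440837), Scn9a (chr2:66480080-66635114) and Scn7a (chr2:66673426-66784910) form a cluster of alpha subunits, in which Scn3a, Scn2a and Scn7a had negative and Scn1a and Scn9a positive differences in both genotypes. The gamma subunits Cacng4 (chr11:107732357-107794706) and Cacng5 (chr11:107874604-107915055) are another adjacent pair, lower and higher in motor neurons respectively.

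The 250 bases before the RefSeq start are shown for 5 genes whose levels differed between motor neurons and tissue or between both motor pools, with GC boxes (GGGCGG, or CCGCCC on the other strand) in capitals. Promoters were listed for 28 of the 37 genes, 38 in all.
Scn1a (chr2:66440838-66441087, minus strand): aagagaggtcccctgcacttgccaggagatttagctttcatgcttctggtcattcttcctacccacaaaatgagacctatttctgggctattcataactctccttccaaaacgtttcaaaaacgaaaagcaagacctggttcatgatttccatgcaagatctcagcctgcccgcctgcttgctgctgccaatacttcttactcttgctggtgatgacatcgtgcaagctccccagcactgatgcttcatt
Scn2b (chr9:45117626-45117875, plus strand): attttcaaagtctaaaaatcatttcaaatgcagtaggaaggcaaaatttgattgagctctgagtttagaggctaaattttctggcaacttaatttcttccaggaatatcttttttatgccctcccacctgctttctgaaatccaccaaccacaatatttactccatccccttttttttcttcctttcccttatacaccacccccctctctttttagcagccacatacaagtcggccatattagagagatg
Scn4b (chr9:45138374-45138623, plus strand): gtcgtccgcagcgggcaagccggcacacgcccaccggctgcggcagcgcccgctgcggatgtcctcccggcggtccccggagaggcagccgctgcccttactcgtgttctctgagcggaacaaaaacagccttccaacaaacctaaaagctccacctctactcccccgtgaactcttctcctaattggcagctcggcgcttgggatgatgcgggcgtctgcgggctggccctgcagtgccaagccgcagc
Cacna2d3 (chr14:29721865-29722114, minus strand): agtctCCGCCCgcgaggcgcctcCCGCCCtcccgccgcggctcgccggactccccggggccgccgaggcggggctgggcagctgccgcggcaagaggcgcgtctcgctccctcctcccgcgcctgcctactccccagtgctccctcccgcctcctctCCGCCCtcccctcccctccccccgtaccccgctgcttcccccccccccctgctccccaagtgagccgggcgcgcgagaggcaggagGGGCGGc
Hcn2 (chr10:79716384-79716633, plus strand): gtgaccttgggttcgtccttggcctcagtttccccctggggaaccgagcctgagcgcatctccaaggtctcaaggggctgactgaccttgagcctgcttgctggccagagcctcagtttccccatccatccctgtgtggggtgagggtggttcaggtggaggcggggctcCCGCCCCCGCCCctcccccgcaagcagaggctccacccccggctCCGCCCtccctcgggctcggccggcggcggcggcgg

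The Cacna2d3 window lies inside the annotated span of the gene, whose outermost start is further upstream. Base composition did not follow direction in these 5 windows. Cacna2d3, higher in motor neurons, had 80% G and C and 30 CpG, and Hcn2, lower in motor neurons, had 70.4% and 16 CpG, against medians of 52.4% and 6 CpG over all 32841 promoters of that length. Scn1a, higher in motor neurons, had 46.8% and 4 CpG, and Scn2b, lower there, 38.4% and 1 CpG. The adjacent Scn4b window had 66% and 23 CpG. A GC box lay in 15 of the 38 channel promoters, or 39.5%, against 32.7% of all. The TATA letters TATAAA, read on both strands, lay in 2 of 38, or 5.26%, against 12.4% of all, and the homeodomain core TAATTA in 0 of 38 against 4.84% of all. None of these motifs overlaps another, and the matches are descriptions of the letters only.

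The first comparison asks how the channel genes of spinal motor neurons differ from those of the tissue around them, in each genotype on separate arrays. In both genotypes motor neurons had more Cacna2d3, Cacng5, Cacng8, Hcn3 and Scn1a mRNA signal than tissue, and less Hcn2, Scn2a, Scn2b, Scn3b, Scn7a, Cacna1b, Cacna1e, Cacna2d1, Cacnb4, Cacng4 and Cacng7. In wildtype samples 17 of 29 tested members passed the threshold, 5 higher and 12 lower in motor neurons, against 58.7% of all genes tested (35.5% higher and 23.1% lower). In mutant samples 26 of 29 passed, 14 higher and 12 lower, against 68.8% of all genes (42% higher and 26.8% lower). Groups without overlap were common: 20 of 29 members in wildtype and 27 of 29 in mutant samples, against 67% and 72.9% of all genes. The median difference of the members was -0.15 in wildtype and 0.41 in mutant samples, beside 0.22 and 0.24 for all genes tested. The same 29 genes were tested in both genotypes, 28 of them with the same sign, and the 16 genes called in both were called in the same direction. They made up 94.1% of the wildtype and 61.5% of the mutant calls. The same counts over all genes are not given here, so this agreement is not read as particular to channel genes. Of the wildtype calls 5, and of the mutant calls 7, were genes that were near background in the lower group, so they passed the filter through the group in which they were bright. In bulk RNA of tissue, fewer cells of a type and less RNA per cell cannot be told apart, and the loss of 5' RNA in the motor neuron samples cannot be told apart from the kind of sample.

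**Figure D2:**
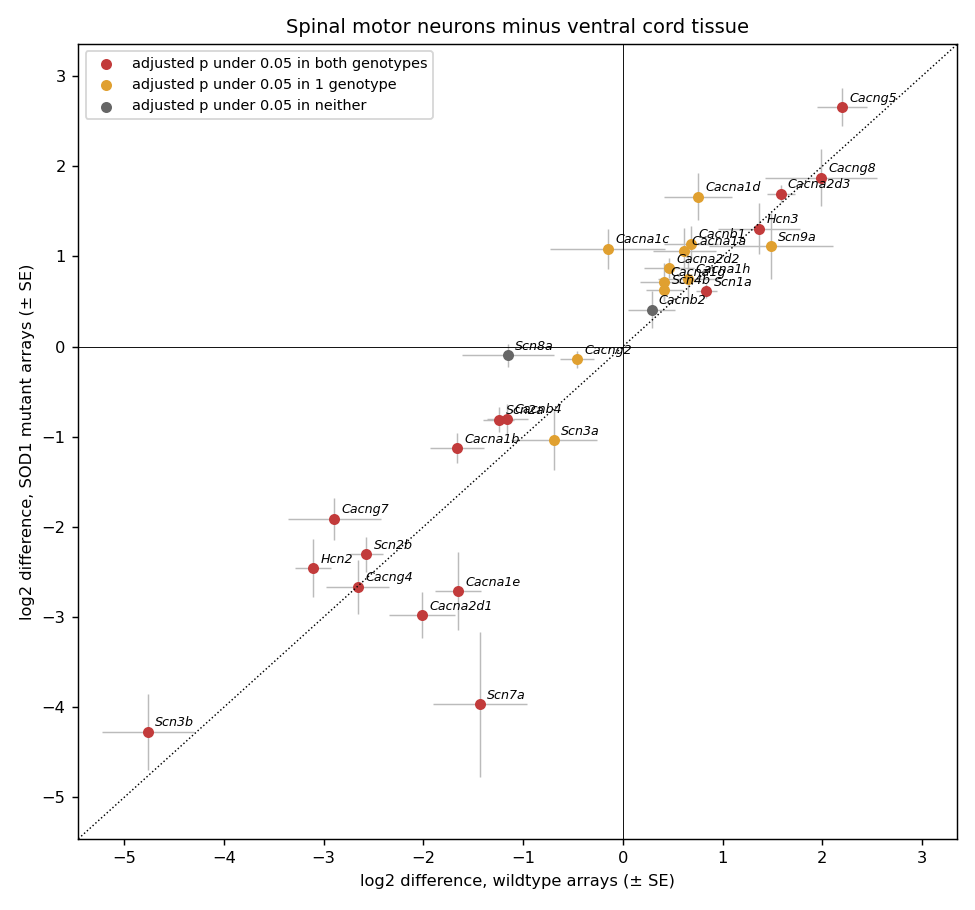
Log2 difference of spinal motor neurons minus ventral cord tissue for 29 channel genes, in wildtype (x) and SOD1 mutant samples (y), with lines of 1 SE; the dotted line marks equal values. The values ran from Scn3b at -4.76 and -4.27 to Cacng5 at 2.20 and 2.66, with Scn7a (-1.43 and -3.97) and Cacna1c (-0.15 and 1.08) among the genes away from the line. Motor neuron means were near background for Scn3b in both genotypes and for Scn7a in mutants.

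The scale between motor neurons and tissue depended on the normalization. The median over all genes was -0.13 in wildtype and -0.04 in mutant samples with the values as deposited, and 0.69 and 0.74 with each array shifted to one median. Higher calls made up 46.4% of all wildtype calls as deposited and 78.6% with a common median, and 49.3% and 79.4% of all mutant calls. Under both scalings 3 of the 5 wildtype and 8 of the 14 mutant higher calls held, and 10 of the 12 lower calls in each genotype. Relative to the median of all genes, Cacng5 was higher by 1.98 in wildtype and 2.41 in mutant samples, Cacna2d3 by 1.36 and 1.45, and Scn1a by 0.62 and 0.37.

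Among the pore-forming sodium channel subunits, Scn1a was the one called higher in both genotypes. Its level was 14.91, 14.86 and 14.75 in wildtype tissue and 15.67, 15.65 and 15.72 in wildtype spinal motor neurons. In mutants it was 14.82, 14.72 and 14.80 in tissue and 15.46, 15.32 and 15.40 in motor neurons. Every motor neuron array lay above every tissue array. The log2 difference was 0.84 (SE 0.11, limma adjusted p = 0.000215) in wildtype, or 1.79-fold, and 0.61 (SE 0.08, adjusted p = 6.25e-05), or 1.53-fold, in mutants. Scn2a (Nav1.2, a channel of unmyelinated axons and developing initial segments) was lower in motor neurons. It read 13.14, 13.28 and 13.06 in wildtype tissue and 11.95, 11.93 and 11.85 in wildtype motor neurons, a difference of -1.25 (SE 0.15, adjusted p = 0.000191). In mutants it read 13.14, 12.89 and 13.11 in tissue and 12.27, 12.04 and 12.39 in motor neurons, a difference of -0.81 (SE 0.14, adjusted p = 0.000477) that was -0.06 and no longer called with a common median. Scn7a (Nax, a sodium sensor of glia) was also lower, with 10.12, 10.85 and 9.81 in wildtype tissue and 9.75, 8.16 and 8.58 in wildtype motor neurons. The mutant motor neuron arrays read 8.85, 5.19 and 7.10 against 10.05, 11.98 and 11.03 in mutant tissue, with a group SD of 1.83. Its differences were -1.43 (adjusted p = 0.0275) and -3.97 (adjusted p = 0.00145), and the wildtype call was lost in 5 of 14 alternatives (adjusted p up to 0.128), 4 of them with a single array left out (tissue replicate 1 or 2, motor neuron replicate 2 or 3). Scn3a (Nav1.3, abundant before birth) and Scn9a (Nav1.7, a channel of peripheral neurons) passed in mutants and not in wildtype samples, at -1.04 and 1.11, and in the interaction test limma's adjusted p was 0.838 and 0.882. Scn3a was near background in mutant motor neurons (mean 8.69) and Scn9a in mutant tissue (mean 8.71). Each mutant call held in 4 of 6 fits with a single array left out, and Scn9a was 0.37 and not called with the values as deposited.

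Of the sodium channel beta subunits, Scn2b and Scn3b were far lower in motor neurons, and Scn4b was not. Scn2b read 14.05, 13.93 and 14.01 in wildtype tissue against 11.50, 11.59 and 11.19 in wildtype motor neurons, and 14.04, 13.91 and 13.77 against 11.27, 12.05 and 11.48 in mutants. No motor neuron array reached any tissue array, and the differences were -2.57 (SE 0.17, adjusted p = 8.63e-06, 5.95-fold) and -2.30 (SE 0.19, adjusted p = 3.23e-06, 4.94-fold). Scn3b read 12.20, 12.13 and 11.63 in wildtype tissue and 8.24, 6.49 and 6.94 in wildtype motor neurons. In mutants it read 12.07, 12.08 and 11.84 in tissue and 7.10, 8.86 and 7.20 in motor neurons, so that 5 of the 6 spinal motor neuron arrays were near background. The differences were -4.76 (SE 0.46, adjusted p = 5.26e-05) and -4.27 (SE 0.42, adjusted p = 1.02e-05). Scn4b was 15.01, 14.94 and 15.06 in wildtype tissue and 15.09, 15.87 and 15.31 in wildtype motor neurons, a difference of 0.42 with an adjusted p of 0.0864. In mutants the readings were 15.04, 14.84 and 14.87 in tissue and 15.61, 15.38 and 15.65 in motor neurons. There the difference of 0.63 (SE 0.10, adjusted p = 0.000231) passed.

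Among the calcium channel pores, the N-type Cacna1b and the R-type Cacna1e were lower in motor neurons of both genotypes. Cacna1e read 12.17, 12.50 and 12.32 in wildtype tissue and 11.05, 10.64 and 10.33 in wildtype motor neurons. The mutant readings were 11.99, 12.07 and 11.82 in tissue and 8.07, 10.18 and 9.49 in motor neurons. All motor neuron arrays were below all tissue arrays, by -1.66 (SE 0.23, adjusted p = 0.000345, 3.15-fold) and -2.71 (SE 0.43, adjusted p = 0.000289, 6.56-fold), and the wildtype call was lost with the mean of its probe sets (-1.09, adjusted p = 0.0574). The other Cacna1e probe set was near background, with a mean of 6.53. Cacna1b read 12.02, 12.35 and 12.24 in wildtype tissue and 10.81, 10.86 and 9.96 in wildtype motor neurons, a difference of -1.66 (SE 0.27, adjusted p = 0.000834). In mutants, 12.06, 12.16 and 12.07 in tissue stood against 11.08, 11.18 and 10.65 in motor neurons, a difference of -1.13 (SE 0.17, adjusted p = 0.000216). The L-type Cacna1d, the channel behind persistent inward currents of motor neurons, was called in mutants alone. It read 9.40, 9.95 and 9.88 in mutant tissue and 11.93, 11.17 and 11.13 in mutant motor neurons, a difference of 1.66 (SE 0.26, adjusted p = 0.000264). With the mean of its probe sets, the other of which was near background, the difference was 0.20 and no longer called (adjusted p = 0.626). In wildtype samples the tissue readings were 10.14, 10.12 and 10.47, and those of motor neurons 10.24, 11.55 and 11.20, with overlap between the groups. The P/Q-type Cacna1a, the L-type Cacna1c and the T-type Cacna1g and Cacna1h were called higher in mutants at 1.06, 1.08, 0.72 and 0.75, and none of these 4 held with the values as deposited, where their differences were 0.28, 0.34, 0.08 and 0.12.

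The alpha2delta subunits, which carry the pore to the membrane and bind gabapentin in some members, split by gene. Cacna2d3 was higher in motor neurons, with 12.94, 13.13 and 13.28 in wildtype tissue and 14.71, 14.76 and 14.63 in wildtype motor neurons. The mutant arrays gave 12.99, 13.00 and 12.85 in tissue and 14.63, 14.63 and 14.66 in motor neurons, with a group SD of 0.018. Its differences were 1.58 (SE 0.14, adjusted p = 3.65e-05, 3.0-fold) and 1.69 (SE 0.10, adjusted p = 3.26e-07, 3.24-fold). Cacna2d1, a binding partner of gabapentin, was lower in motor neurons. It read 12.75, 12.65 and 12.82 in wildtype tissue and 11.56, 10.17 and 10.44 in wildtype motor neurons, a difference of -2.01 (SE 0.33, adjusted p = 0.000915). Mutant tissue read 12.71, 12.84 and 12.93, and mutant motor neurons 10.08, 10.26 and 9.22, a difference of -2.98 (SE 0.25, adjusted p = 3.63e-06). Cacna2d2 was called in mutants alone, at 0.87 (SE 0.11, adjusted p = 6.52e-05) beside 0.46 in wildtype samples, and the call was lost with the mean of its probe sets (adjusted p = 0.109). The other Cacna2d2 probe sets were near background, with means of 6.64 and 5.91.

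Of the cytoplasmic calcium channel beta subunits, Cacnb4 was called lower in both genotypes and Cacnb1 higher in mutants, but a bright probe set of each gave the other sign. Cacnb4 read 13.25, 12.99 and 13.03 in wildtype tissue and 11.62, 12.29 and 11.89 in wildtype motor neurons, a difference of -1.16, and in mutants the difference was -0.80. Its 2 other bright probe sets gave -1.07 and 0.17 in wildtype samples. With a common median the Cacnb4 differences were -0.49 in wildtype and -0.045 in mutant samples, and neither was called. Cacnb1 read 10.11, 10.40 and 10.46 in mutant tissue and 11.18, 11.67 and 11.54 in mutant motor neurons, a difference of 1.14 (SE 0.19, adjusted p = 0.000438), while its other bright probe set gave -0.10.

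The gamma subunits showed both the highest and some of the lowest differences. Cacng5 (an AMPA receptor auxiliary subunit) read 10.16, 10.32 and 10.47 in wildtype tissue and 12.46, 12.99 and 12.10 in wildtype motor neurons. In mutants it read 9.82, 10.18 and 10.05 in tissue and 12.83, 12.94 and 12.24 in motor neurons. All motor neuron arrays were above all tissue arrays, by 2.20 (SE 0.25, adjusted p = 0.00012, 4.59-fold) and 2.66 (SE 0.21, adjusted p = 2.26e-06, 6.30-fold). With the mean of its probe sets, the other of which was near background, the wildtype difference was 0.64 and no longer called (adjusted p = 0.167). Cacng4 fell on the other side, with 11.30, 10.69 and 11.35 in wildtype tissue and 8.39, 8.19 and 8.79 in wildtype motor neurons. Both calls passed at -2.66 (limma adjusted p = 0.000147 in wildtype, 2.57e-05 in mutants), and no fold is given because the motor neuron levels were at or near background. Cacng7 was lower by -2.89 (adjusted p = 0.000802) and -1.91 (adjusted p = 4.47e-05), and its wildtype motor neuron mean of 8.19 was near background. Cacng3 had a mean above 8.79 in both tissue groups and in no motor neuron group, at 10.20 to 10.50 in wildtype and 10.10 to 10.30 in mutant samples, and it was too dim in motor neurons to be tested. Cacng8 was higher at 1.99 (SE 0.56, adjusted p = 0.0146) and 1.87 (SE 0.32, adjusted p = 0.00043), with wildtype motor neuron readings of 11.52, 9.83 and 9.24, and the wildtype call did not hold as deposited (adjusted p = 0.102). Its tissue means, 8.21 in wildtype and 8.31 in mutant samples, were near background. Stargazin, Cacng2, was called lower in wildtype samples at -0.46 (adjusted p = 0.0442), and this turned to 0.56 with a common median.

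Both Hcn channels were called in both genotypes, in opposite directions. Hcn2 read 13.48, 13.46 and 13.46 in wildtype tissue and 10.55, 10.37 and 10.16 in wildtype motor neurons. In mutants the tissue arrays read 13.18, 12.55 and 12.64 and the motor neuron arrays 10.64, 10.84 and 9.51. The differences were -3.11 (SE 0.18, adjusted p = 5.07e-06, 8.62-fold) and -2.46 (SE 0.32, adjusted p = 7.35e-05, 5.51-fold). Hcn3 was near background in most tissue samples, at 9.05, 7.96 and 8.69 in wildtype and 8.49, 8.56 and 8.73 in mutant tissue, and read 10.17, 10.21 and 9.41 and 9.68, 10.26 and 9.76 in the respective motor neurons. Its differences of 1.37 (adjusted p = 0.0191) and 1.31 (adjusted p = 0.00213) were 0.51 and 0.53 and not called with the values as deposited. Markers of other cells moved with these differences: the summed inhibitory interneuron intensity was 129000 to 155000 in tissue and 7470 to 99700 in spinal motor neurons, and that of excitatory interneurons 48100 to 57100 and 983 to 6110. Of the 5 excitatory markers on the arrays, 4 were near background in wildtype spinal motor neurons. The part of other cells in these differences was not tested.

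Scn8a, the main sodium channel of the axon initial segment, shows how far the probe set matters. The probe set used read 14.96, 14.91 and 14.90 in wildtype tissue and 12.77, 15.01 and 13.52 in wildtype spinal motor neurons, with a wide spread among replicates, and the difference of -1.16 (SE 0.46) had an adjusted p of 0.0569. In mutants it was -0.10 (SE 0.13, adjusted p = 0.519), with readings of 14.75, 14.72 and 14.70 in tissue and 14.61, 14.91 and 14.36 in motor neurons. The other bright probe sets of Scn8a gave 0.67, -0.22 and -4.86 in wildtype samples and 1.21, 0.62 and -5.14 in mutants. The positions of the probe sets along the transcript were not used here. Of the 17 wildtype calls, 6 genes had another bright probe set, and 4 of them had the same sign in all. Of the 26 mutant calls, 9 had another and 7 of them the same sign in all.

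**Figure D3:**
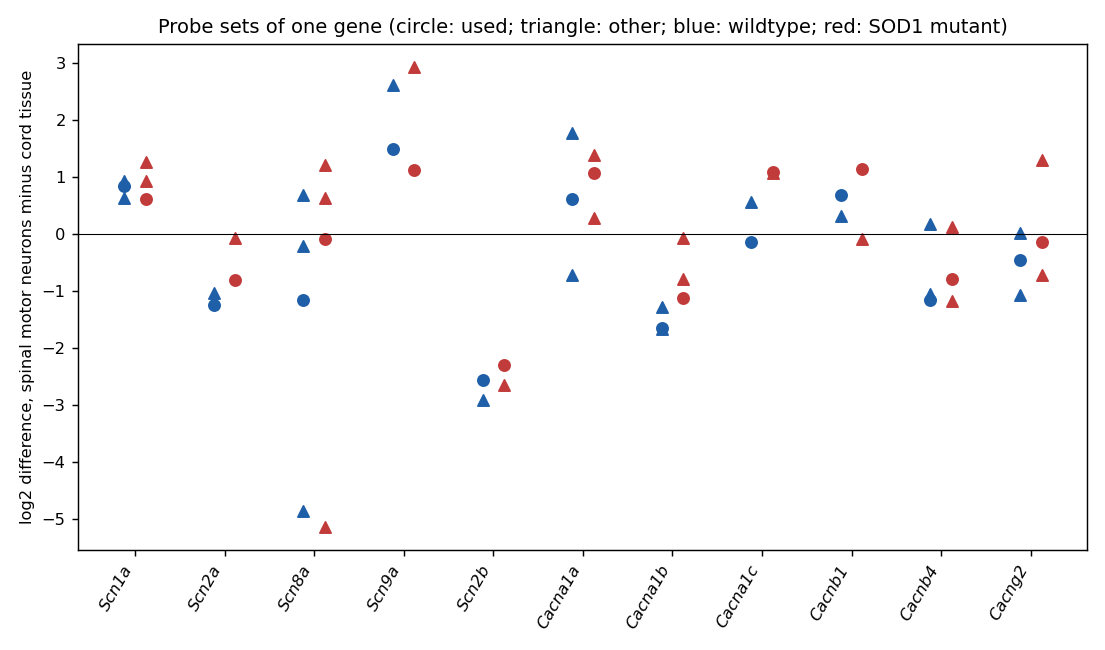
Log2 difference of spinal motor neurons minus tissue for each bright probe set (mean at least 8.79) of the 11 channel genes that have several; circles are the sets used, triangles the others, blue wildtype and red SOD1 mutant. Scn1a and Scn2b had the same sign in all sets, while the sets of Scn8a ran from -4.86 to 0.67 in wildtype samples.

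The next comparison sets spinal against facial motor neurons, 2 pools that serve limb or trunk and face muscles. Scn4b and, close to the threshold, Cacnb2 were called higher in spinal than in facial cells in both genotypes. In wildtype samples 4 of 27 members were called, 3 higher and 1 lower in spinal cells, against 3.96% of all genes tested (2.13% higher and 1.82% lower). In mutants 3 of 27 were called, against 7.3% of all genes (4.09% higher and 3.22% lower). The groups did not overlap in 11 of 27 members in wildtype and 8 of 27 in mutant samples, against 28.5% and 28.4% of all genes. Of 26 genes tested in both genotypes 17 had the same sign, and the 2 called in both made up 50% of the wildtype and 66.7% of the mutant calls. For these counts too, no share over all genes is given here. The actin ratio was higher in facial than in spinal cells of the same genotype, and with it as a covariate the wildtype count was 0 and the mutant count 2. The wildtype count was also 0 without spinal replicate 3, facial replicate 2 or facial replicate 3, and 2 without spinal replicate 1. The mutant count was 1 without spinal replicate 1 or replicate 3. Markers of other cells differed too: of inhibitory interneuron markers 5 of 5 tested were higher in wildtype spinal cells, 3 of them called, with sums of 20500 to 30100 against 2690 to 5540. In mutants 4 of 4 were higher, 2 of them called, and of microglial markers 12 of 12 were higher and 11 called, with sums of 73900 to 99900 against 22600 to 27000. Their part in these differences was not tested.

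Scn4b read 15.09, 15.87 and 15.31 in wildtype spinal and 14.55, 14.19 and 14.34 in wildtype facial cells, without overlap. In mutants the readings were 15.61, 15.38 and 15.65 in spinal and 15.01, 14.26 and 14.92 in facial cells, again without overlap. The differences were 1.06 (SE 0.20, adjusted p = 0.0241, 2.09-fold) and 0.82 (SE 0.18, adjusted p = 0.0183, 1.76-fold), and both calls were lost without the mean-variance trend. Cacnb2, a beta subunit best known from heart L-type channels, read 10.84, 11.49 and 11.52 in wildtype spinal and 9.27, 10.09 and 10.08 in wildtype facial cells. In mutants it read 11.26, 10.90 and 10.87 against 10.37, 9.57 and 9.88. Its differences of 1.47 (SE 0.34, adjusted p = 0.0478, 2.77-fold) and 1.07 (SE 0.29, adjusted p = 0.0441, 2.09-fold) lay close to the threshold, and neither held under both scalings. With a single array left out, each Cacnb2 call held in 1 of 6 fits, and those of Scn4b in 3 (wildtype) and 4 (mutant) of 6. Cacna1g, a pore of low-voltage-activated T-type channels, was higher in spinal cells on every array, with 10.97, 11.27 and 10.71 against 9.33, 9.88 and 9.76 in wildtype and 10.93, 10.76 and 11.39 against 9.59, 9.96 and 10.41 in mutant samples. Its differences of 1.32 and 1.04 missed the threshold at adjusted p = 0.0508 and 0.0557.

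The remaining calls were made in one genotype. In wildtype samples Scn2a read 11.95, 11.93 and 11.85 in spinal and 12.55, 13.07 and 12.95 in facial cells, lower by -0.95 (SE 0.20, adjusted p = 0.0377, 1.93-fold), while in mutants the difference was -0.06. The wildtype Scn2a call held in 2 of 6 fits with a single array left out and in 7 of 11 other alternatives. Cacna1e read 11.05, 10.64 and 10.33 in wildtype spinal and 8.95, 7.88 and 8.17 in wildtype facial cells, a difference of 2.34 (SE 0.44, adjusted p = 0.0244). In mutants it read 8.07, 10.18 and 9.49 in spinal and 9.47, 9.45 and 9.07 in facial cells, a difference of -0.09 (SE 0.52). The wildtype facial mean of Cacna1e, 8.33, was near background, so the gene passed the filter through the spinal cells. Its wildtype call held in 2 of 6 fits with a single array left out. Cacna2d1 was called in mutants, where it read 10.08, 10.26 and 9.22 in spinal and 11.18, 12.22 and 11.90 in facial cells, lower by -1.92 (SE 0.34, adjusted p = 0.00656, 3.77-fold). This call held with each single array left out, and was lost with the mean of its probe sets (-0.92, adjusted p = 0.276) and without the mean-variance trend (adjusted p = 0.0553). The other Cacna2d1 probe sets were near background, with means of 7.06 to 7.99. The wildtype readings of 11.56, 10.17 and 10.44 against 9.97, 12.34 and 11.58 overlapped, with a difference of -0.57. Whether these differences depended on genotype was tested with the interaction, and 0 of 26 members passed (0% of all genes), 4 of them at an unadjusted p under 0.05, against 9.04% of all. The adjusted p was 0.408 for Cacna1e, 0.489 for Scn2a and 0.604 for Cacna2d1.

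**Figure D4:**
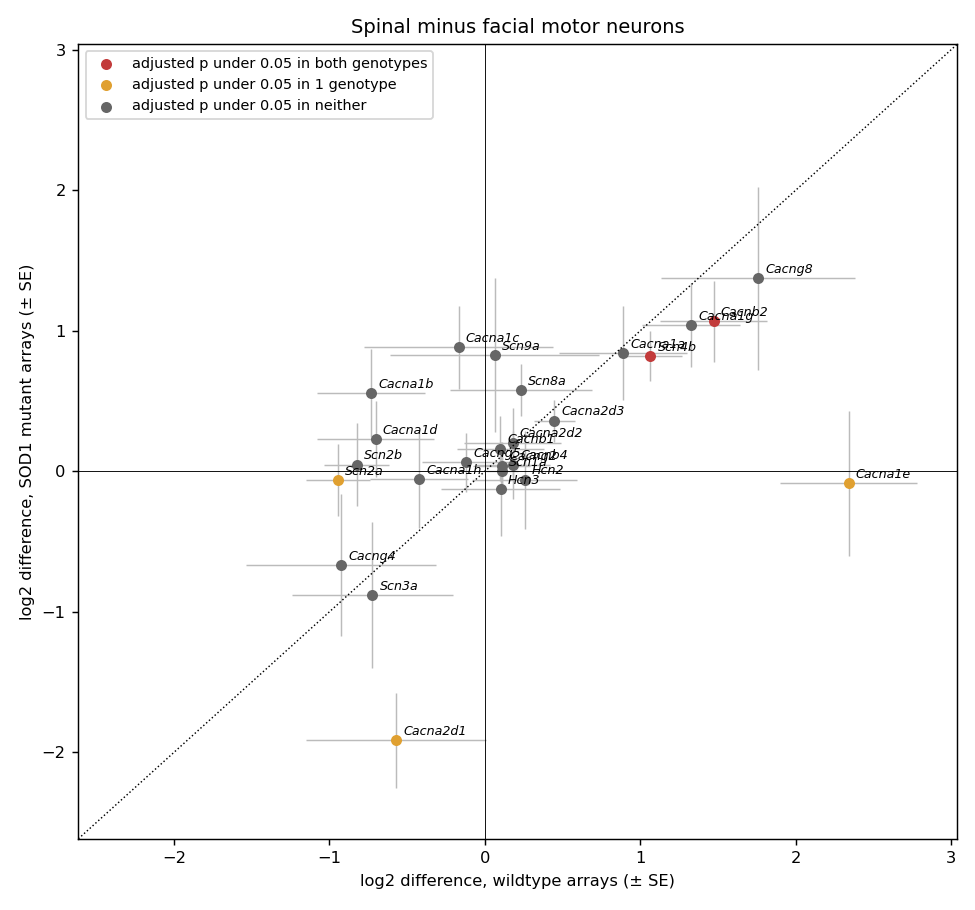
Log2 difference of spinal minus facial motor neurons for 26 channel genes in wildtype (x) and SOD1 mutant samples (y), with lines of 1 SE; the dotted line marks equal values. Scn4b and Cacnb2 passed in both genotypes, and Cacna1e lies away from the line at 2.34 and -0.09. The wildtype facial mean of Cacna1e was near background.

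Between the Hcn channels of both motor pools no difference was detected. Hcn2 differed by 0.26 in wildtype (95% interval -0.50 to 1.01) and by -0.06 in mutant samples (-0.82 to 0.70), and Hcn3 by 0.10 (-0.76 to 0.96) and -0.13 (-0.86 to 0.60). Scn1a differed by 0.11 (-0.11 to 0.33) in wildtype samples.

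The genotype comparisons ask whether channel genes differ between SOD1 mutant and wildtype samples of one kind. No channel gene was called in any kind of sample. In tissue 0 of 28 members passed, against 0.641% of all genes, and 7 had an unadjusted p under 0.05, against 9.92%. In spinal motor neurons 0 of 24 passed, against 0.0641%, with 3 at an unadjusted p under 0.05 (9.5% of all). In facial motor neurons 0 of 27 passed, against 0%, with 3 at an unadjusted p under 0.05 (17.9% of all).

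In cord tissue the members lay mostly lower in mutants: 20 of 28 had a negative difference, with a median of -0.11 beside -0.01 for all genes tested. In 7 genes every mutant array was below every wildtype array, against 8.68% of all genes tested, and in none was every mutant array above, against 7.06%. These were Hcn2, Scn8a, Cacna1e, Cacna1d, Cacnb2, Cacng2 and Cacna1c. Hcn2 had the smallest p, at 13.48, 13.46 and 13.46 in wildtype and 13.18, 12.55 and 12.64 in mutant tissue, a difference of -0.68 (SE 0.15, 95% interval -1.01 to -0.34, adjusted p = 0.115). It passed with the actin ratio as a covariate (adjusted p = 0.00579) and without mutant replicate 1, which read nearest to the wildtype values (-0.87, adjusted p = 0.00377). Over all genes, 13 to 119 were called with single arrays left out and 4 to 144 under the other alternatives, against 70 in the main fit. Scn8a read 14.96, 14.91 and 14.90 in wildtype and 14.75, 14.72 and 14.70 in mutant tissue, a difference of -0.20 (SE 0.06, adjusted p = 0.285). Cacna1e differed by -0.37 (SE 0.12, adjusted p = 0.331), with 12.17, 12.50 and 12.32 against 11.99, 12.07 and 11.82. Cacna1d differed by -0.50 (adjusted p = 0.425), Cacnb2 by -0.40 (0.443), Cacng2 by -0.20 (0.483) and Cacna1c by -0.28 (0.603). The summed microglial marker intensity was 77000 to 84000 in wildtype and 127000 to 142000 in mutant tissue. Of 7 inhibitory interneuron markers 6 had negative differences in mutants, 1 of them called (Sst, -0.40, adjusted p = 0.0313), with sums of 131000 to 155000 in wildtype and 129000 to 132000 in mutant tissue. The part of either cell type in these differences was not tested.

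In the opposite direction in tissue, Scn11a (Nav1.9, a channel of sensory neurons) read 8.77, 8.86 and 7.52 in wildtype and 8.67, 11.09 and 9.89 in mutant samples, a difference of 1.5 (SE 0.55, adjusted p = 0.411) with overlap. Scn7a read 10.12, 10.85 and 9.81 against 10.05, 11.98 and 11.03. Mutant replicate 2 was the highest for both genes. Prph (peripherin, of motor and peripheral neurons) read 13.13 there, against 11.69 to 12.69 on the other tissue arrays. Trpv1 (of sensory neurons) read 8.58 there, against 6.40 to 7.82, and was under 8.79 on every tissue array. The summed intensity of the 3 Schwann cell and sensory neuron markers on the arrays was 80016 on mutant replicate 2 and 84754 to 96737 on the other tissue arrays. Nefh, the brightest of them, had tissue means of 16.51 in wildtype and 16.33 in mutant samples. It was also called higher in spinal motor neurons than in tissue, so the sum is not one of sensory neurons alone. Pmp2, also on the list, differed by 0.60 in mutant tissue (limma adjusted p = 0.861), with overlap. The part of sensory neurons in these readings was not tested.

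**Figure D5:**
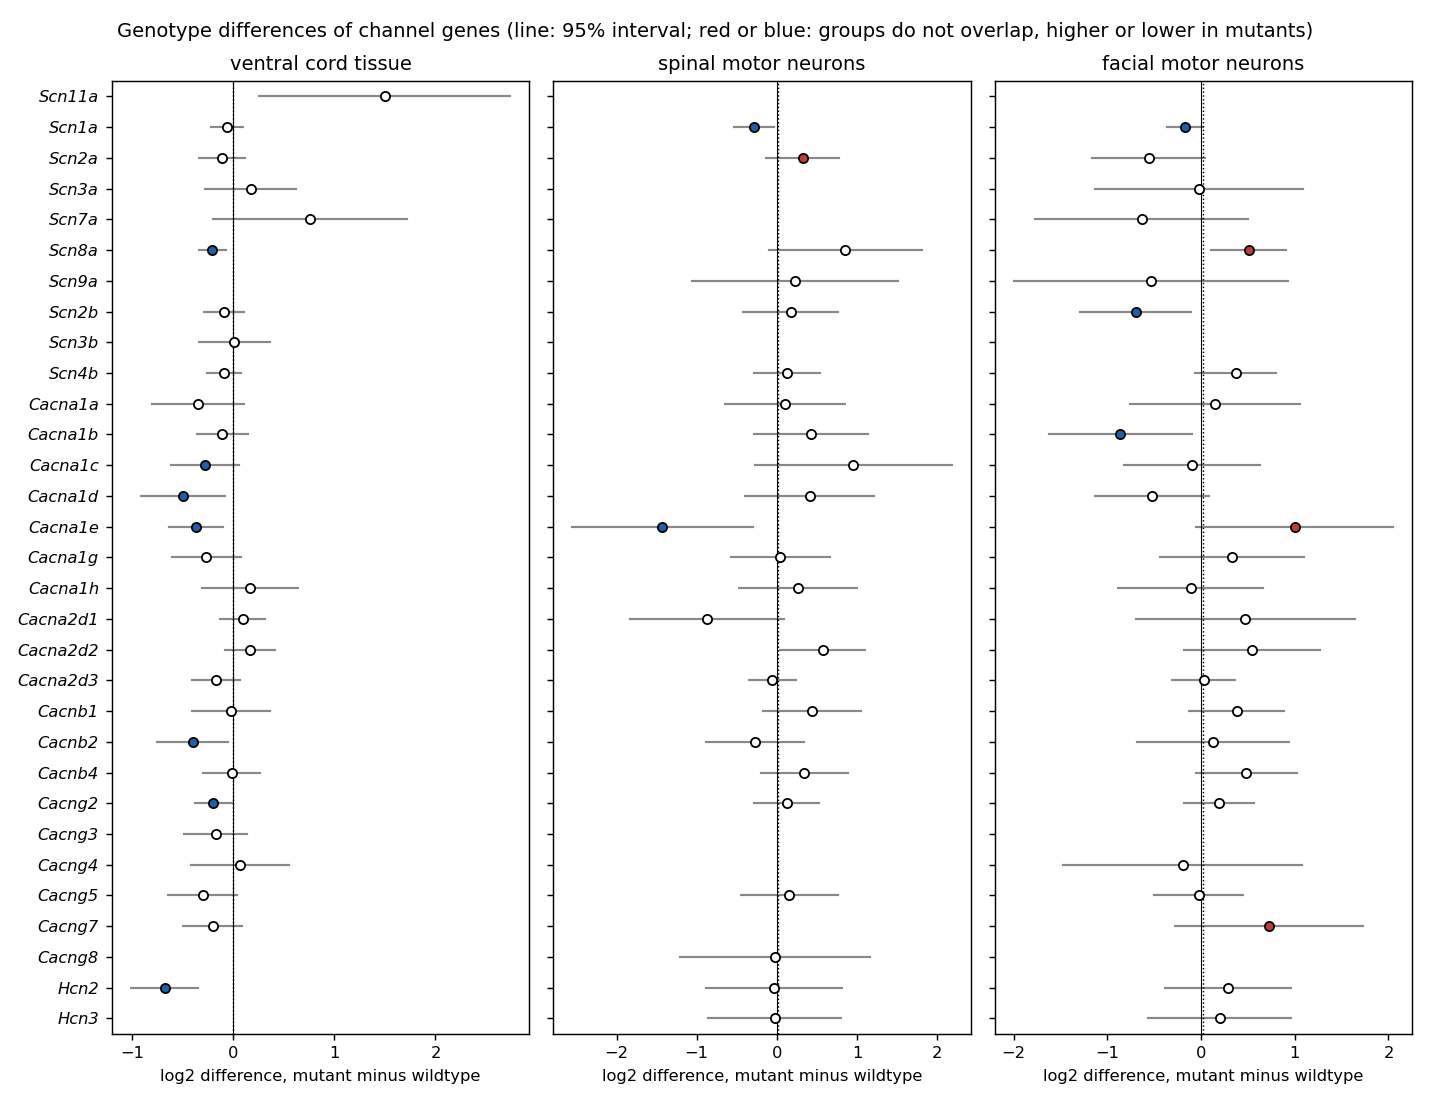
Log2 difference of mutant minus wildtype for each tested channel gene in ventral cord tissue, spinal motor neurons and facial motor neurons; lines are 95% intervals, red and blue points are genes whose groups do not overlap (higher or lower in mutants), and the dotted line is the median of all genes. In tissue 7 genes are blue and none red, and the intervals are wider in both kinds of motor neurons.

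In spinal motor neurons Cacna1e had the smallest p, with 11.05, 10.64 and 10.33 in wildtype and 8.07, 10.18 and 9.49 in mutant samples, a difference of -1.43 (SE 0.51, 95% interval -2.55 to -0.30, adjusted p = 0.467). Scn1a read 15.67, 15.65 and 15.72 against 15.46, 15.32 and 15.40, a difference of -0.28 (SE 0.11, adjusted p = 0.498) without overlap. Cacna2d2 differed by 0.57 (SE 0.24, adjusted p = 0.509). Scn2a was the one gene with every mutant array higher, at 11.95, 11.93 and 11.85 against 12.27, 12.04 and 12.39, a difference of 0.32 (adjusted p = 0.605). Groups did not overlap in 3 of 24 members, against 14.3% of all genes. Without wildtype replicate 2, the array with the high Scn8a reading, Scn8a at 1.48 (adjusted p = 0.0101) and Cacna2d2 at 0.82 (adjusted p = 0.0342) passed. Over all genes, 2 to 666 were called with single arrays left out, against 7 in the main fit. With all arrays, the other bright probe sets of Scn8a differed by 0.46, 0.49 and -0.65. The summed microglial marker intensity was 12400 to 34300 in wildtype and 73900 to 99900 in mutant spinal motor neurons, and its part was not tested. For the Hcn channels the intervals were -0.88 to 0.82 for Hcn2 and -0.86 to 0.80 for Hcn3.

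In facial motor neurons the smallest p belonged to Scn8a, which read 13.70, 13.35 and 13.57 in wildtype and 14.12, 13.70 and 14.33 in mutant samples, a difference of 0.51 (SE 0.18, 95% interval 0.11 to 0.91, adjusted p = 0.203). Scn2b read 12.29, 12.28 and 12.18 against 12.17, 11.11 and 11.38, lower by -0.70 (SE 0.26, adjusted p = 0.22). Cacna1b read 11.80, 11.11 and 10.92 against 10.63, 9.77 and 10.84, a difference of -0.86 (SE 0.34, adjusted p = 0.237) that was 0.015 with the mean of its probe sets. Cacna1e read 8.95, 7.88 and 8.17 against 9.47, 9.45 and 9.07, a difference of 1.0 (SE 0.47, adjusted p = 0.302). Groups did not overlap in 6 of 27 members, 3 in each direction, against 24.1% of all genes. Without mutant replicate 2 Scn8a at 0.68 (adjusted p = 0.0486) and Scn4b at 0.60 (adjusted p = 0.0483) passed. Over all genes, 0 to 380 were called with single arrays left out, against 0 in the main fit. The actin ratio was higher in wildtype than in mutant facial cells, and its part was not tested beyond the covariate, with which 0 members were called.

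Of 29 members tested for a genotype effect that differed between spinal motor neurons and tissue, 0 passed, against 0.055% of all genes, with 2 at an unadjusted p under 0.05 (8.85% of all). The smallest adjusted p was 0.541, for Scn7a at -2.54 (SE 1.07). Without wildtype spinal motor neuron replicate 2, Scn8a passed at 1.68 (adjusted p = 0.00339). Over all genes, 1 to 877 were called with single arrays left out, against 6 in the main fit.

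The channels work with proteins that hold them at the initial segment, modify their gating or link them to release sites. A list of 61 such partner genes had 54 on the arrays. No partner passed in the 3 genotype comparisons, where 46 (tissue), 45 (spinal) and 46 (facial) were tested. Between spinal motor neurons and tissue, 15 of 47 were higher and 21 lower in wildtype samples, and 15 and 22 in mutants. Of all genes 35.5% were higher and 23.1% lower in wildtype, and 42% and 26.8% in mutant samples. The partners had medians of -0.22 and -0.32 beside 0.22 and 0.24 for all genes. Synaptotagmin 1 (Syt1, the calcium sensor of transmitter release) was lower in motor neurons by -3.97 in wildtype and -4.04 in mutant samples (both groups' means 14.86 and 10.89, and 14.68 and 10.64). Ncs1, a neuronal calcium sensor, was lower by -2.09 and -1.78 in the respective genotypes. Prkaca, the catalytic subunit of protein kinase A, was higher by 1.55 and 1.59, and the wildtype value was 0.068 and not called with the mean of its probe sets (adjusted p = 0.699).

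Of the other partners with the smallest p in that comparison, 4 of 5 changed sign with the mean of their probe sets. In wildtype samples Pex5l, which binds Hcn channels, was higher by 2.60 and Cntnap2, of the juxtaparanode, by 1.46. With the mean of their probe sets these became -0.74 and -0.28. Gem, a small GTPase that inhibits calcium channels, was called higher in all 15 alternatives, from a tissue mean of 7.78, near background. In mutants L1cam and Fgf11 were higher by 1.43 and 2.05, and turned to -0.96 and -0.13 with the mean of probe sets.

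Between spinal and facial motor neurons, 1 partner was higher and 2 lower of 46 in wildtype samples, against 2.13% and 1.82% of all genes. In mutants 4 were higher and 5 lower, against 4.09% and 3.22%. Prkca, a protein kinase C, was higher in spinal cells by 1.42 (adjusted p = 0.0445) and 1.22 (adjusted p = 0.0225). Cntn1, a cell adhesion molecule that binds sodium channels, was lower by -1.10 and -0.68 (adjusted p = 0.04 and 0.0248). Rem2, a GTPase that inhibits calcium channels, was lower by -1.24 and -1.51 (adjusted p = 0.0455 and 0.003). In mutants Fgf13, which binds the tail of sodium channels, was lower by -1.69 (adjusted p = 0.0138), and Nfasc, which anchors channels at the initial segment, was higher by 0.75 (adjusted p = 0.0167). Of these calls, Rem2 in mutants held in all 17 alternatives, while in wildtype samples Rem2 and Prkca were each lost in 11 of 17 and Cntn1 in 6 of 17.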

How the data were processed

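The authors deposited linear intensity values for 45101 probe sets on each of 18 arrays. How the scans became intensities is not given in the sources used here. The mean after trimming 2% at each end was 2500 on every array, and array number, 3 per group, limits the precision. The pseudocount of 16 was added, log2 taken and the arrays quantile normalized. Probe sets with 1 symbol in the platform annotation (34945) gave 18193 genes, each by its brightest probe set, and genes under the 40th percentile of a fit were left out. Differences came from limma 3.58.1 (R 4.3.3), fitted to the groups of each comparison alone with a mean-variance trend in eBayes, tested on simulated data. Members, lists and tests were chosen with earlier results of these data known. Every member could be named; array values were given for up to 4 members per subfamily and comparison with the smallest p among those called, or else for the smallest p, and for members named beside them. Up to 5 partner genes with the smallest p were named. Marker lists of 10 cell types served as checks. The alternatives were the values as deposited, a common median, pseudocounts of 1 and 64, no filter or the 60th percentile, the mean of a gene's probe sets, no trend, all arrays in 1 fit, a replicate block, the actin ratio as a covariate (not between motor neurons and tissue, which it separates) and each array left out.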

Additional observations from a re-analysis of the deposited data

Results flagged for a closer look

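Cacna1e, the pore of R-type calcium channels, had genotype differences of opposite sign in both motor pools. Every mutant array was below every wildtype array in spinal motor neurons (-1.43), and every mutant array was above in facial motor neurons (1.0). Of all genes tested, 7.41% were so separated downward in spinal and 13% upward in facial motor neurons. The difference between both genotype effects was -2.43 (SE 0.72, 95% interval -3.97 to -0.88), and limma's adjusted p of 0.408 did not pass. The level was under 8.79 on wildtype facial replicates 2 and 3, at 7.88 and 8.17, and on mutant spinal replicate 1, at 8.07. The inhibitory interneuron marker sums of the mutant spinal replicates were 46500, 99700 and 7470, and their part was not tested.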

How the results depend on the processing

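With 3 arrays a group, leaving out any array moved several counts of called channel genes. Those ranges were 0 to 1 for genotype in tissue, 0 to 2 in spinal and 0 to 2 in facial motor neurons, 14 to 22 and 22 to 27 for motor neurons against tissue (wildtype, mutant), 0 to 4 and 1 to 3 for spinal against facial motor neurons, 0 to 0 for the genotype effect between motor pools and 0 to 1 for that between spinal motor neurons and tissue. Counts over all genes moved too, at 13 to 119, 2 to 666 and 0 to 380 for genotype in tissue, spinal and facial motor neurons. They were 5228 to 6928 and 6633 to 7627 for motor neurons against tissue, and 66 to 685 and 308 to 683 for spinal against facial. For the 2 genotype effects they were 0 to 3 and 1 to 877. Adding the actin covariate gave 1 channel gene for genotype in tissue and 0 for wildtype spinal against facial. For that last comparison the count was 1 with the mean of probe sets, 1 without the trend and 7 with all arrays in 1 fit. Its mutant counterpart gave 1 with the 60th percentile filter, 1 with the mean of probe sets and 0 without the trend. Over all genes, the alternatives other than leaving an array out gave 4 to 1834 calls in wildtype and 147 to 1132 in mutant samples. The 60th percentile filter left 12 calls for mutant motor neurons against tissue. Members under that percentile are not tested with it, and the number tested is not given here.

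Replicate numbers were not used as pairs in the main fits, and these values do not settle whether they pair the samples. Same-numbered deviations correlated at 0.069 to 0.303 (tissue), 0.020 to 0.098 (spinal) and 0.032 to 0.125 (facial) in the genotype comparisons. In every comparison at least 1 pair correlated at 0.1 or less. With the replicate block the count was 1 in tissue (Hcn2, adjusted p = 0.0384) and 2 for wildtype spinal against facial motor neurons. Of 6 samples, 4 (tissue), 5 (spinal) and 5 (facial genotype comparison), 0 and 3 (motor neurons against tissue, wildtype and mutant) and 1 and 2 (spinal against facial) correlated best with their own number.

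Several differences changed sign, and the cause was not tested. For genotype in spinal motor neurons, Hcn2 was 0.14 as deposited, 0.044 with a common median, 0.55 with the actin covariate and from -0.29 to 0.38 with single arrays left out (positive without wildtype replicate 1 or mutant replicate 3). There Scn4b was -0.052 with a common median, -0.11 with the covariate and from -0.044 (without wildtype replicate 1) to 0.35 with single arrays left out, and Cacnb1 -0.87 with the mean of probe sets and -0.15 with the covariate. In facial motor neurons Cacna1b was 0.015 with the mean of probe sets and Cacna2d2 -0.12 with the covariate. Between motor neurons and tissue, Cacng2 was 0.56 with a common median in wildtype samples. The mean of probe sets gave -0.28 for Cntnap2 and -0.74 for Pex5l in wildtype and -0.041 for Cacnb1, -0.96 for L1cam and -0.13 for Fgf11 in mutant samples. Hcn3 between mutant motor pools ran from -0.36 to 0.012 (without facial replicate 3). For the genotype effect between motor pools, Cacng5 was -0.60 with the mean of probe sets and from -0.026 to 0.42 with single arrays left out (negative without wildtype spinal replicate 3 or facial replicate 1), and Hcn2 ran from -0.57 to 0.092 (without mutant spinal replicate 3). Between spinal motor neurons and tissue, the mean of probe sets gave 0.0035 for Cacna2d1 and -0.75 for Cacnb1.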
